A study of Mus musculus with 2 samples.

Results

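Nitric oxide (NO) and cyclic GMP (cGMP) signalling in pericytes was followed through 9 genes chosen by name, all of which were present among the 32285 gene features. They were the soluble guanylate cyclase subunits Gucy1a1, Gucy1a2 and Gucy1b1, the phosphodiesterase Pde5a, the kinase Prkg1, the cation channel Trpc6, the potassium channel Kcnk3, the cytochrome oxidase subunit Cox4i2 and the G protein regulator Rgs5. None of them was used to cluster the nuclei or to name a cell type. NO relaxes the contractile cells around vessels by binding soluble guanylate cyclase, a heterodimer of an alpha and a beta subunit, which then makes cGMP. This cyclic nucleotide activates cGMP-dependent protein kinase and is broken down by phosphodiesterase 5. Pericytes wrap around capillaries, and in the lung they lie on the vessels that take part in gas exchange.

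Nuclei came from fetal lungs of wild-type C57BL/6J mice on day 18 of gestation. Mothers had been sensitized with ovalbumin (OVA) in alum and given OVA intranasally while pregnant, or had received PBS in alum and then PBS. The E18 OVA library pooled 8 fetuses and the E18 PBS library 9 fetuses, with 1 library per group. Each group came from a single pregnant dam, so the fetuses of a pool were littermates, and litter and treatment cannot be told apart. ILC2s (CD45+ Lin- ST2+), CD45+ cells and EpCAM+ cells were sorted before RNA and accessible chromatin were read from each nucleus, and stromal nuclei belong to none of these gates. With no replicate library there was no test and no p-value. Every interval below is an exact 95% interval for counting error only, and a difference between OVA and PBS compares these libraries, not the conditions.

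The PBS library held 8019 barcodes with 11473351 gene UMIs, of which 45.2% were mitochondrial, and 4245 nuclei were kept. The OVA library held 5960 barcodes with 13774959 gene UMIs, of which 29.2% were mitochondrial, and 4993 nuclei were kept. The libraries shared 54 barcodes, and 32 of these were kept in both, among them 2 PBS and 1 OVA pericyte-like nuclei.

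One cluster carried the pericyte markers and was called pericyte-like. It held 111 PBS nuclei (2.61% of kept nuclei, 2.16 to 3.14) and 140 OVA nuclei (2.80%, 2.36 to 3.30). Of the 10 pericyte markers, 9 in PBS and 10 in OVA were at least 2-fold above all other nuclei. The platelet-derived growth factor receptor Pdgfrb stood at 1021 UMIs per 1000000 gene UMIs (CPM) in PBS and 961 CPM in OVA, and Notch3, a Notch receptor of mural cells, at 532 and 691 CPM. The summed level of the 10 markers was 3516 CPM in PBS and 3704 CPM in OVA, against 141 and 128 CPM in all other nuclei. The class was shallow, with a median of 966 UMIs per PBS nucleus and 1582 per OVA nucleus.

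Markers of other cells were also read in this cluster. Endothelial markers gave 11 UMIs in PBS and 33 in OVA over 10 genes, and a summed level of 79.1 and 125 CPM against 169 and 297 CPM in the other nuclei, and 0 and 1 of them were at least 2-fold higher. Tie1 and Emcn, which mark endothelium, were at 0 in both libraries. A 0 in this cluster allows up to 21.6 CPM in PBS and 11.4 CPM in OVA (3 counts). In OVA, Tek had 10 UMIs (38.0 CPM, log2 ratio over all other nuclei 1.65) and Pecam1 14 UMIs (53.2 CPM, -0.17). Of 12 myofibroblast or smooth muscle markers, 10 in PBS and 11 in OVA were detected and 6 in each library were at least 2-fold higher, with a summed level of 913 and 897 CPM against 670 and 633 CPM. Acta2, smooth muscle actin, stood at 273 and 198 CPM in the cluster, and Aspn at 216 and 262 CPM. Myh11, smooth muscle myosin, stood at 216 and 175 CPM, against 373 and 609 CPM in myofibroblast or smooth muscle-like nuclei. Hhip was at 1598 and 1814 CPM and Tgfbi at 1460 and 1987 CPM in those nuclei. In the cluster Hhip was at 28.8 and 15.2 CPM and Tgfbi at 35.9 and 19.0 CPM. Their log2 ratios there over all other nuclei were -2.97 and -3.84, and -2.67 and -3.51. Cnn1 was at 0 in both, and at 10.0 and 4.26 CPM (6 and 3 UMIs) in myofibroblast or smooth muscle-like nuclei. Those levels are under what a 0 in the cluster allows, so this 0 does not separate the classes. Fibroblast markers had a summed level of 568 and 528 CPM, against 1744 and 2142 CPM in the other nuclei. All 8 alveolar type 2 markers were detected in both libraries. Their summed level was 1272.5 CPM in PBS and 536 CPM in OVA, against 3975 and 2974 CPM in the other nuclei. ILC2 markers summed to 647 and 942 CPM, against 952 and 1375 CPM. Of these 2 lists, 0 markers were at least 2-fold higher in either library. The part of these markers in the values below was not tested.

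The promoters of 4 of the genes are shown. Those of Gucy1a1, Gucy1b1 and Pde5a belong to the enzymes that make and break down cGMP, and Trpc6 had the largest ratio of RNA and of accessibility at its start between pericyte-like and all other nuclei. Each runs 5′ to 3′ on the gene's strand, from 250 bases before to 50 after a RefSeq transcription start (GRCm38.p6). Capitals mark letters of a motif found on either strand.
Trpc6: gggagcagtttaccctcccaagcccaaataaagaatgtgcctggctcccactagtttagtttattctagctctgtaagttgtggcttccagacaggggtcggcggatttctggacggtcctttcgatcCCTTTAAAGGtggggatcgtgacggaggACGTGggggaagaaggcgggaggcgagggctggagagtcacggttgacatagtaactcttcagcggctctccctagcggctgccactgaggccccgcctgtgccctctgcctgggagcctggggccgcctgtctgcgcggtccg
Gucy1b1: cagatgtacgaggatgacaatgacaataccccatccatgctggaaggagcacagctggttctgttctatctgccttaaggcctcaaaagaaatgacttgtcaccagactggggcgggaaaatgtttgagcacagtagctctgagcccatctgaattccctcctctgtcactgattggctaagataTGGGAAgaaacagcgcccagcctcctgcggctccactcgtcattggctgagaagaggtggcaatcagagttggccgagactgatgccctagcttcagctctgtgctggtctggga
Gucy1a1: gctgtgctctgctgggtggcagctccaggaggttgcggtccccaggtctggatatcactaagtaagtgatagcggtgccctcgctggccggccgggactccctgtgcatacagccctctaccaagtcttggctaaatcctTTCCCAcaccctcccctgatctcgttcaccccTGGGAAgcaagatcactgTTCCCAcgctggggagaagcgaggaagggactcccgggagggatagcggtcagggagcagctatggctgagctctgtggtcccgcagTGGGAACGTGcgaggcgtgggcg
Pde5a: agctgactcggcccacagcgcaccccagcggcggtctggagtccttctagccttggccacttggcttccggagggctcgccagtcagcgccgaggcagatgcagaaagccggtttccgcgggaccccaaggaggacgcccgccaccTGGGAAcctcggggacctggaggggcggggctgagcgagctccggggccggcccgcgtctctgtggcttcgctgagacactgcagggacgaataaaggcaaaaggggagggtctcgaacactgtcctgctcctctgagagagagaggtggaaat

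The windows lie at chr9:8543892-8544191 (plus strand) for Trpc6, chr3:82074662-82074961 (minus strand) for Gucy1b1, chr3:82145024-82145323 (minus strand) for Gucy1a1 and chr3:122728908-122729207 (plus strand) for Pde5a. The RefSeq table held 9 promoters of 7 of the genes, and Kcnk3 and Cox4i2 had no entry. The table held 32851 promoters of this length in all, and motifs were searched on both strands. The RBPJ core, the letters bound by the DNA-binding partner of Notch receptors (TGGGAA), was in 25.6% of all promoters and in 4 of the 9, those of Gucy1a1, Gucy1b1, Pde5a and Prkg1. The Gucy1a1 window shown held 4 copies of it. A RefSeq start nearer the annotated 5′ end of Gucy1a1 has another window (chr3:82145601-82145900), which is not shown and held none of the motifs searched. The hypoxia response core (ACGTG) was in 19.6% of all promoters and in 3 of the 9, those of Gucy1a1, Gucy1a2 and Trpc6. In the Gucy1a1 window it overlapped an RBPJ core. The CArG box, the element of serum response factor and of many smooth muscle genes, was in 1.63% of all promoters and in 1 of the 9, that of Trpc6. There it ran from base -122 to base -113 relative to the start, and the same run matched on both strands. The GATA core (AGATAA) was in 11.2% of all promoters and in 2 of the 9, those of Prkg1 and Rgs5. The other motifs searched were the MCAT element (CATTCC), held by 14.7% of all promoters, and the usual letters of a TATA box (TATAAA), held by 13.6%, and 0 of the 9 windows contained either. A match is a run of letters and not a measured binding site.

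All 9 genes were highest in pericyte-like nuclei among 9 named types, in both libraries. Over all genes tested, 14% in PBS and 14.6% in OVA were highest there. The 9 genes and the markers were chosen with earlier results of these data known. This count and those against other classes below therefore describe the 9 genes and test nothing. The lead over the runner-up had an interval above 0 for 7 genes in PBS and 8 in OVA. When unnamed clusters of at least 50 nuclei were counted as well, giving 11 classes, all 9 were again highest, with 6 and 8 intervals above 0.

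**Figure D1:**
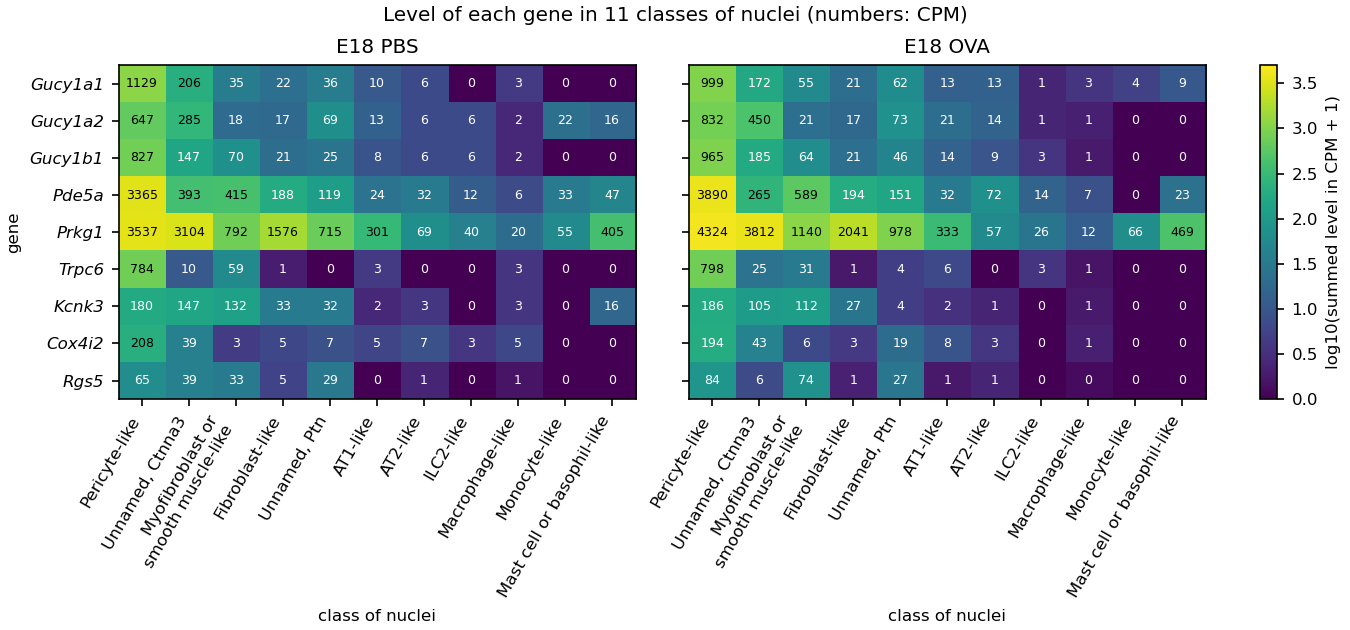
Summed level of each of the 9 genes in 11 classes of nuclei, with the CPM as numbers and log10(CPM + 1) as colour, for the PBS and OVA libraries (1 library each). The pericyte-like column is the highest for every gene, while Prkg1 is also high in the unnamed Ctnna3 cluster (3104 and 3812 CPM) and in fibroblast-like nuclei (1576 and 2041 CPM).

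All 3 cyclase subunits were read in pericyte-like nuclei. Gucy1a1, the common alpha subunit (chr3:82092427-82145789, minus strand), stood at 1129 CPM (959 to 1320) in PBS and 999 CPM (882 to 1127) in OVA. Gucy1a2, the alternative alpha subunit (chr9:3532778-3894736, plus strand), stood at 647 CPM (520 to 795) in PBS and 832 CPM (725 to 950) in OVA. Gucy1b1, the beta subunit that carries the haem (chr3:82032006-82074689, minus strand), stood at 827 CPM (683 to 992) and 965 CPM (850 to 1091). In macrophage-like nuclei, which should lack these genes, no subunit was above 3.27 CPM in PBS or 2.58 CPM in OVA. Gucy1b1 and Gucy1a1 lie on the same strand with 17.7 kb between their bodies.

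The phosphodiesterase and the kinase had the most UMIs of the 9. Pde5a, which hydrolyses cGMP (chr3:122728947-122859374, plus strand), stood at 3365 CPM (3067 to 3684) in PBS and 3890 CPM (3656 to 4136) in OVA. Prkg1, the kinase that cGMP activates (chr19:30564489-31765033, minus strand), stood at 3537 CPM (3231 to 3864) in PBS and 4324 CPM (4076 to 4582) in OVA. Both genes are long, and nuclear RNA is read along the whole gene body. Genes annotated on the opposite strand overlap the bodies of Pde5a, Prkg1, Trpc6 and Kcnk3, and Mir7010 lies inside Gucy1a1 on the same strand.

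The channels and the remaining genes were lower. Trpc6, a cation channel opened by diacylglycerol (chr9:8544142-8680741, plus strand), was at 784 CPM (643 to 945) in PBS and 798 CPM (694 to 913) in OVA. Kcnk3, the acid-sensitive leak channel TASK-1 (chr5:30588170-30625271, plus strand), was at 180 CPM (116 to 265) and 186 CPM (138 to 246). Cox4i2, the alternative form of a cytochrome oxidase subunit tied to oxygen sensing (chr2:152754173-152765037, plus strand), was at 208 CPM (140 to 299) and 194 CPM (144 to 255). Rgs5, widely used as a pericyte marker (chr1:169655501-169695813, plus strand), had 9 UMIs in PBS and 22 in OVA. Its level of 64.7 CPM (29.6 to 123) and 83.6 CPM (52.4 to 127) was the lowest of the 9.

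Per kilobase of gene body, the order of levels was different. Pde5a led with 25.8 CPM per kb in PBS and 29.8 in OVA, and was followed by Gucy1a1 (21.2 and 18.7), Gucy1b1 (19.4 and 22.6) and Cox4i2 (19.2 and 17.8). Lower levels were those of Trpc6, 5.74 and 5.84 CPM per kb, and Kcnk3, 4.84 and 5.02. Prkg1, whose body of 1201 kb is the longest, had 2.95 and 3.60 CPM per kb. Gucy1a2 had 1.79 and 2.30 CPM per kb and Rgs5 1.61 and 2.07. The step from Cox4i2 down to Trpc6 and the step from Prkg1 down to Gucy1a2 exceeded the counting intervals in both libraries. In OVA Pde5a also lay above Gucy1b1, whereas the other neighbours in the order had overlapping intervals. On this scale Gucy1a1 was the more abundant alpha subunit and lay close to Gucy1b1.

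Outside the pericyte-like class, the genes differed in where else they were read. Prkg1 was read in many classes, with 301 CPM in PBS and 333 CPM in OVA in alveolar type 1-like nuclei and 405 and 469 CPM in mast cell or basophil-like nuclei. Pde5a was at 188 and 194 CPM in fibroblast-like nuclei and at 24.2 and 32.1 CPM in alveolar type 1-like nuclei. Trpc6 was at most 5.62 CPM in the 7 named classes of at least 50 nuclei other than the pericyte-like and the myofibroblast or smooth muscle-like ones. In an unnamed stromal cluster led by Ptn and Prss35 (190 PBS and 118 OVA nuclei), Gucy1a2 was at 68.6 and 73.4 CPM and Prkg1 at 715 and 978 CPM, and Trpc6 had 0 UMIs in PBS and 1 in OVA.

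Against all other nuclei, every gene was at least 4-fold higher in both libraries, where 3.22% of genes in PBS and 3.6% in OVA were. With at most 20% mitochondrial UMIs this was no longer so for Kcnk3 (log2 ratio 1.54) and Rgs5 (1.94) in PBS, from 9 pericyte-like nuclei, and for Prkg1 (1.98) in OVA. At 2-fold the shares of all genes were 13.5% in PBS and 12.7% in OVA. The median log2 ratio of the 9 was 5.03 in PBS and 5.24 in OVA. Trpc6 had the largest ratio: its UMIs numbered 109 in the pericyte-like and 47 in all other PBS nuclei, and 210 and 60 in OVA, for log2 ratios of 6.71 (6.21 to 7.24) and 7.27 (6.85 to 7.71). The subunits Gucy1a1, at 5.99 (5.63 to 6.35) and 5.77 (5.50 to 6.04), and Gucy1b1, at 5.51 (5.13 to 5.90) and 5.81 (5.54 to 6.09), came next. Gucy1a2, Pde5a and Cox4i2 lay between 5.00 and 5.36 in both libraries. The smallest ratios were those of Prkg1, 2.81 (2.67 to 2.95) and 2.63 (2.54 to 2.72), followed by Kcnk3, 2.92 (2.25 to 3.54) and 3.57 (3.09 to 4.04), and Rgs5, 3.21 (1.99 to 4.26) and 3.82 (3.05 to 4.53).

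Myofibroblast or smooth muscle-like nuclei (460 PBS, 379 OVA) were the other named contractile class. Here 7 of the 9 genes were at least 2-fold higher in pericyte-like nuclei in each library, against 9.66% of all genes in PBS and 9.32% in OVA. The median log2 ratio was 3.56 in PBS and 3.92 in OVA. Gucy1a2 stood at 18.4 CPM in PBS and 21.3 CPM in OVA in this class, for log2 ratios of 5.14 (4.23 to 6.19) and 5.29 (4.53 to 6.15). Gucy1a1 was at 35.1 and 55.4 CPM, with ratios of 5.01 (4.34 to 5.74) and 4.17 (3.68 to 4.70). Gucy1b1 was at 70.2 CPM (50.6 to 94.9) and 63.9 CPM (46.6 to 85.5) there, with ratios of 3.56 (3.04 to 4.10) and 3.92 (3.46 to 4.41). It lay above Gucy1a2 in both libraries. Its intervals overlapped those of Gucy1a1, 21.7 to 53.7 CPM in PBS and 39.4 to 75.7 CPM in OVA. Cox4i2 had 2 UMIs in PBS and 4 in OVA.

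The channel Kcnk3 and the regulator Rgs5 were the 2 genes under 2-fold in that contrast. Kcnk3 was at 132 CPM in PBS and 112 CPM in OVA in the myofibroblast or smooth muscle-like class, with log2 ratios of 0.44 (-0.27 to 1.11) and 0.73 (0.19 to 1.26). Rgs5 was at 33.4 and 73.8 CPM, with ratios of 0.95 (-0.37 to 2.15) and 0.18 (-0.61 to 0.92), and its intervals included 0 in both libraries. In PBS both directions turned with at most 20% mitochondrial UMIs, to -0.454 for Kcnk3 and -0.584 for Rgs5, and in OVA that of Rgs5 turned to -0.403. Pde5a was at 415 and 589 CPM and Prkg1 at 792 and 1140 CPM, and both enzymes were read there as well, with ratios of 3.02 and 2.72 for Pde5a and 2.16 and 1.92 for Prkg1. Trpc6 had 35 UMIs in PBS and 22 in OVA, with ratios of 3.74 (3.18 to 4.34) and 4.68 (4.04 to 5.38).

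Fibroblast-like nuclei (900 PBS, 1166 OVA) differed from the pericyte-like class in all 9 genes. Each was at least 2-fold higher in pericyte-like nuclei in both libraries, against 11.7% of all genes in PBS and 12.4% in OVA, with median log2 ratios of 5.23 and 5.59. Trpc6 had 1 UMI in PBS and 2 in OVA among the fibroblast-like nuclei, which gave log2 ratios of 9.76 (7.25 to 15.1) and 10.0 (8.15 to 13.1). Kcnk3 was at 32.6 and 26.5 CPM in this class, with ratios of 2.46 (1.66 to 3.24) and 2.81 (2.25 to 3.36). Prkg1 was the least different, at 1576 CPM in PBS and 2041 CPM in OVA fibroblast-like nuclei, with ratios of 1.17 (1.02 to 1.31) and 1.08 (0.99 to 1.18). The filter of 30 UMIs used for the share of all genes was passed by 8 of the 9 in each library here and by 8 in the PBS contrast with myofibroblast or smooth muscle-like nuclei, and Rgs5 was the gene that did not pass it.

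A small unnamed cluster led by Ctnna3 and Stac (56 PBS, 70 OVA nuclei) had smooth muscle and pericyte markers with too small a lead between them to be named. Prkg1 was nearly level with pericyte-like nuclei there, at 3104 CPM in PBS and 3812 CPM in OVA, for log2 ratios of pericyte-like over this cluster of 0.19 (-0.02 to 0.40) and 0.18 (0.04 to 0.33). Gucy1a2 was at 285 and 450 CPM, with ratios of 1.18 (0.57 to 1.84) and 0.89 (0.50 to 1.29). Pde5a was lower, at 393 and 265 CPM, with ratios of 3.10 (2.63 to 3.60) and 3.88 (3.44 to 4.35). Gucy1a1 (2.45 and 2.53) and Gucy1b1 (2.49 and 2.38) had intervals above 0 as well. Kcnk3 was at 147 and 105 CPM, with ratios of 0.29 (-0.69 to 1.32) and 0.83 (0.0090 to 1.72), and Trpc6 had 1 UMI in PBS and 4 in OVA. Rgs5 had 4 UMIs in PBS and 1 in OVA, with ratios of 0.72 (-1.12 to 2.87) and 3.76 (1.13 to 9.13). Cox4i2 had ratios of 2.41 (0.90 to 4.38) and 2.17 (1.02 to 3.55). In PBS the intervals of Prkg1, Kcnk3 and Rgs5 thus included 0.

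**Figure D2:**
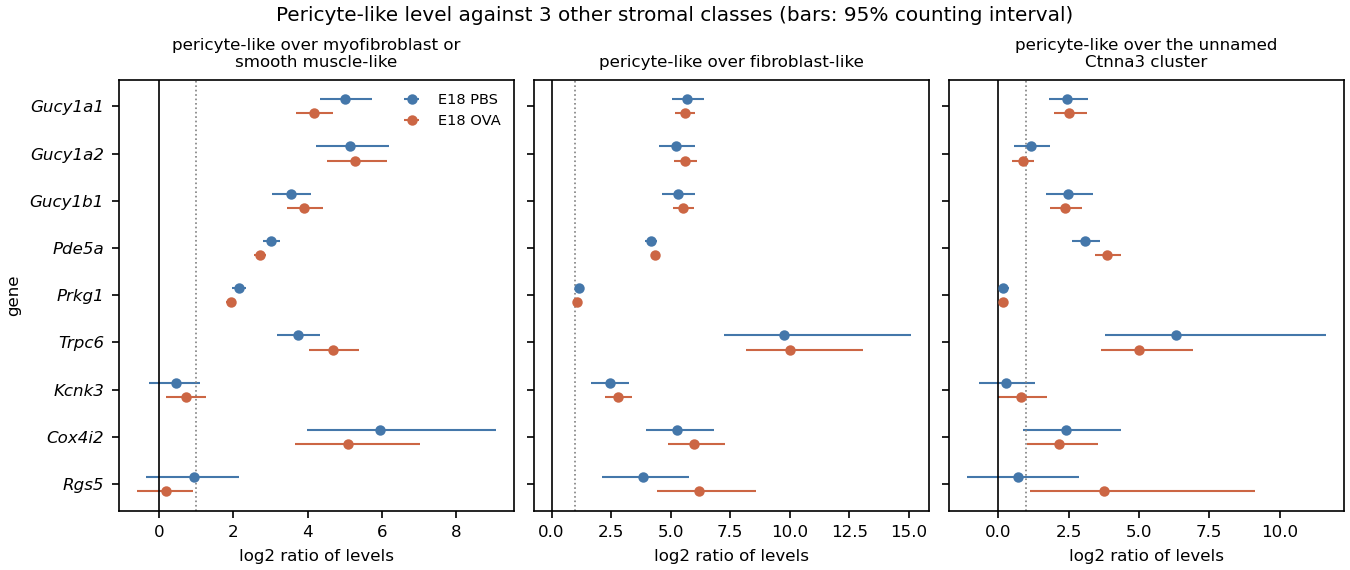
Log2 ratio of the level in pericyte-like nuclei over that in myofibroblast or smooth muscle-like nuclei, fibroblast-like nuclei and the unnamed Ctnna3 cluster for each gene, with exact 95% counting intervals, in the PBS and OVA libraries (solid line, equal levels; dotted line, 2-fold). Kcnk3 and Rgs5 lie near 0 in the first panel, and Prkg1 lies near 1 in the second and near 0 in the third.

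Single nuclei carried several of the genes at once. After each nucleus was thinned to 500 UMIs of nuclear genes, 60 PBS and 123 OVA pericyte-like nuclei were left, and 51 and 17 shallower ones were set aside. They held a mean of 3.62 and 3.75 of the 9 genes, against 4.11 and 5.24 before thinning. At least 3 genes were detected in 83.3% (71.5 to 91.7) of PBS and 82.1% (74.2 to 88.4) of OVA nuclei, and every thinned pericyte-like nucleus had at least 1. The highest number in a nucleus was 7. At least 3 were detected in 2.36% and 2.29% of myofibroblast or smooth muscle-like nuclei and in 0.524% and 0.454% of fibroblast-like nuclei. Macrophage-like nuclei gave 0 of 834 in PBS and 0 of 1364 in OVA, with exact upper bounds of 0.441% and 0.270%. The Ctnna3 cluster gave 32.6% (19.1 to 48.5) in PBS and 5.97% (1.65 to 14.6) in OVA.

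**Figure D3:**
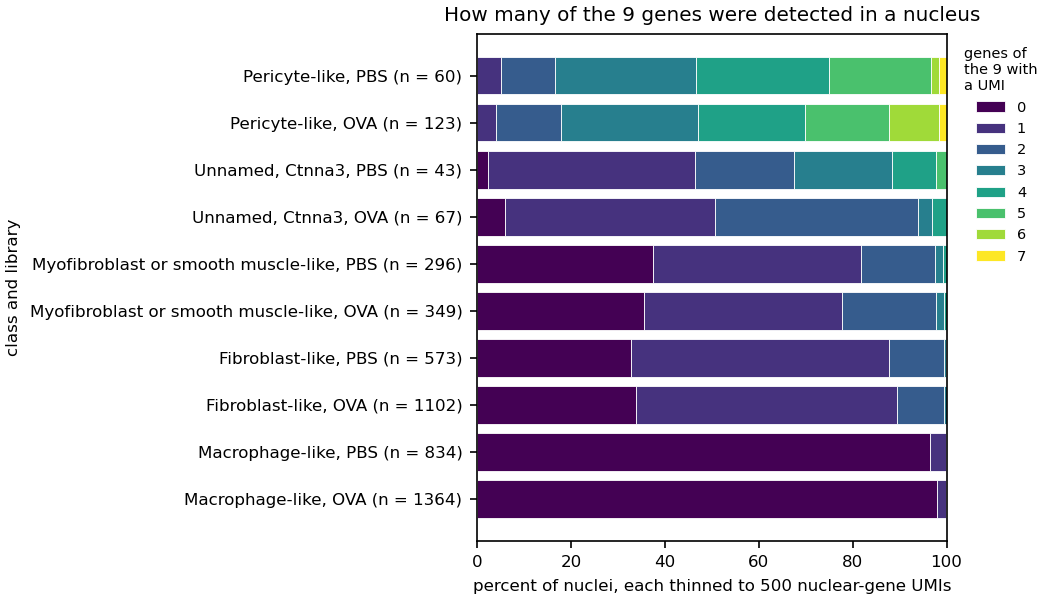
Percent of nuclei in which 0 to 7 of the 9 genes had a UMI, after each nucleus was thinned to 500 UMIs of nuclear genes, by class and library (n, thinned nuclei). Pericyte-like nuclei mostly hold 3 or more (83.3% in PBS and 82.1% in OVA), and macrophage-like nuclei mostly none.

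Gene by gene, the thinned share of pericyte-like nuclei with a UMI was highest for Prkg1 (83.3% in PBS and 89.4% in OVA) and Pde5a (80.0% and 82.9%). Gucy1a1 was seen in 30 of 60 PBS nuclei and in 48.0% of OVA nuclei, Gucy1b1 in 43.3% and 56.9%, and Gucy1a2 in 33.3% and 39.0%. Trpc6 was seen in 40.0% and 30.9%. Cox4i2 (18.3% and 15.4%), Kcnk3 (8.33% and 9.76%) and Rgs5 (5.00% and 2.44%) were seen in a minority. Before thinning, Gucy1a1 was in 61.3% of PBS and 70.0% of OVA pericyte-like nuclei, at median depths of 966 and 1582 UMIs. Its share in macrophage-like nuclei was 0.526% and 0.640%, at median depths of 1435 and 2228 UMIs.

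Between the OVA and PBS libraries the 9 genes differed little in pericyte-like nuclei. None reached 2-fold in either direction (Rgs5 did when nuclei were also filtered on their RNA and accessibility counts together, the joint count filter, at 1.5 on the log2 scale, and with at most 20% mitochondrial UMIs, at 1.13), where 11.4% of 2054 genes were at least 2-fold higher and 0.682% at least 2-fold lower in OVA. The median log2 ratio of the 9 was 0.21, and that of all genes tested was 0.31. Prkg1 at 0.29 (0.14 to 0.45), Pde5a at 0.21 (0.05 to 0.37) and Gucy1a2 at 0.36 (0.0024 to 0.73) had intervals above 0, as 18.7% of all genes did. No gene of the 9 had an interval below 0, as 1.22% of all genes did. Gucy1b1 was at 0.22 (-0.10 to 0.55), Trpc6 at 0.03 (-0.31 to 0.37) and Gucy1a1 at -0.18 (-0.47 to 0.12). The widest intervals were those of Rgs5, 0.37 (-0.81 to 1.67), Kcnk3, 0.05 (-0.67 to 0.81), and Cox4i2, -0.11 (-0.79 to 0.60).

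Mitochondrial UMIs took 33.9% of the pericyte-like class in PBS and 23.3% in OVA. With nuclear-gene UMIs as the denominator, the median ratio became -0.0046 and that of all genes 0.10. No interval of the 9 then lay above 0, against 8.47% of all genes. Gucy1a1 lay below 0, at -0.39 (-0.68 to -0.10), as 2.87% of all genes did. The part of the mitochondrial share in these ratios, beyond this change of denominator, was not tested.

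**Figure D4:**
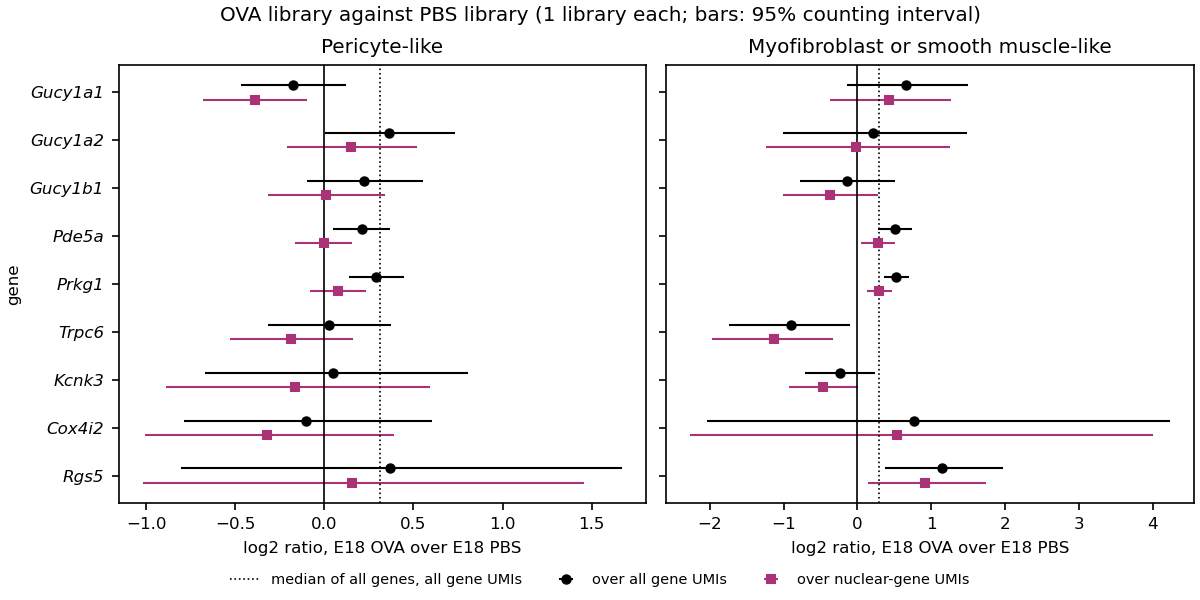
Log2 ratio of OVA over PBS for each gene in pericyte-like and in myofibroblast or smooth muscle-like nuclei, over all gene UMIs (circles) and over nuclear-gene UMIs (squares), with exact 95% counting intervals and the median of all genes (dotted line). Over all gene UMIs the pericyte-like ratios run from -0.18 for Gucy1a1 to 0.37 for Rgs5.

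In the neighbouring classes some of the genes differed more. Rgs5 in myofibroblast or smooth muscle-like nuclei had 20 UMIs (33.4 CPM) in PBS and 52 UMIs (73.8 CPM) in OVA, a log2 ratio of 1.14 (0.37 to 1.96). Trpc6 in the same nuclei had 35 and 22 UMIs (58.5 and 31.2 CPM), a ratio of -0.91 (-1.75 to -0.10). Prkg1 at 0.52 (0.36 to 0.69) and Pde5a at 0.51 (0.28 to 0.74) had intervals above 0 there, where the median of all genes was 0.29. In that class 23.2% of all genes had an interval above 0 and 2.39% one below 0. Over nuclear-gene UMIs the ratios of Rgs5 and Trpc6 were 0.91 (0.14 to 1.73) and -1.14 (-1.98 to -0.33). Among the 9 in fibroblast-like nuclei, Prkg1 alone had an interval off 0, at 0.37 (0.29 to 0.45), where the median of all genes was 0.26 and 24.7% of all genes had an interval above 0 and 1.86% one below 0. The filter of 30 UMIs behind these shares was passed by 7 of the 9 in the myofibroblast or smooth muscle-like class and by 6 in the fibroblast-like class. Whether any gene's ratio differed between classes was not tested.

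Accessible chromatin was measured in the same nuclei as transposition counts in peaks called per library. Within 2 kb of the annotated start, 8 of the 9 genes in PBS were at least 1.5-fold more accessible in pericyte-like than in all other nuclei, against 20.2% of all genes, and Gucy1a1 was not. In OVA it was again 8 of the 9, with no peak at Rgs5, against 20.5%. The median log2 ratio was 1.36 in PBS and 1.43 in OVA. Trpc6 had the largest ratio, with 30 counts in pericyte-like and 110 in all other PBS nuclei, and 62 and 139 in OVA, for 3.59 (2.66 to 4.44) and 4.07 (3.40 to 4.69). Its single peak there covers the promoter printed above. Over myofibroblast or smooth muscle-like nuclei, every gene with a peak had a lower ratio than over all other nuclei in both libraries. Trpc6 alone had intervals above 0 in both, at 1.83 (0.80 to 2.91) and 1.76 (0.97 to 2.58). Over fibroblast-like nuclei, intervals lay above 0 in both libraries for Gucy1b1, Trpc6 and Kcnk3. Those of Prkg1 (0.02 and 0.11) and Pde5a (0.48 and 0.33) included 0.

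The beta subunit Gucy1b1 had ratios of 2.41 (1.85 to 2.92) in PBS and 1.85 (1.31 to 2.34) in OVA. Gucy1a2 stood at 1.12 (-0.03 to 2.23) in PBS, from 15 counts, and 2.78 (2.23 to 3.29) in OVA, from 74 counts. Pde5a, at 1.11 (0.54 to 1.63) and 1.02 (0.57 to 1.48), and Prkg1, at 1.19 (0.47 to 1.77) and 1.32 (0.81 to 1.79), were more modest. Kcnk3 had 1.78 (1.15 to 2.41) and 1.53 (0.97 to 2.04). Cox4i2, with 10 and 16 counts, had 1.36 (-0.29 to 2.64) and 1.33 (0.08 to 2.35), and Rgs5 had 2.13 (0.20 to 3.61) in PBS from 8 counts. For Prkg1 another RefSeq start, 101 kb into the gene, gave 1.74 (0.37 to 3.06) and 1.40 (0.04 to 2.49).

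The start of Gucy1a1 had the lowest ratio among the starts with a peak in both libraries. Only 3 counts in PBS and 7 in OVA fell there in pericyte-like nuclei, with log2 ratios of -0.33 (-2.99 to 1.97) and 0.66 (-1.07 to 2.25), and both intervals included 0 at this depth. The RNA of this gene was 63.4-fold and 54.6-fold higher than in all other nuclei. A peak upstream of the start, centred at -34.4 kb in PBS and -34.6 kb in OVA and outside any annotated gene, had far larger ratios (chr3:82179605-82180711 in PBS and chr3:82179903-82180954 in OVA). Pericyte-like nuclei gave 24 of the PBS counts (53.3%) and 52 of the OVA counts (57.1%) in this peak. All other nuclei together gave 21 and 39 counts, of which fibroblast-like nuclei gave 6 and 10, myofibroblast or smooth muscle-like nuclei 4 and 15, and macrophage-like nuclei 0 and 2. The unnamed Ctnna3 cluster gave 4 of them in each library, from only 56 PBS and 70 OVA nuclei, and no ratio over that cluster was computed. The log2 ratio was 5.66 (4.40 to 7.10) in PBS and 5.65 (4.71 to 6.53) in OVA, that is 50.6-fold and 50.1-fold.

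Among peaks with at least 10 counts in pericyte-like nuclei, 8.73% in PBS and 7.89% in OVA were at least 4-fold more accessible there. A larger ratio than at the upstream Gucy1a1 peak was found for 4 of 18657 such peaks in PBS and 0 of 24572 in OVA. This peak was picked out after its values had been seen. The nearest other coding gene, Gucy1b1, was 105 kb away, and whether the peak acts on Gucy1a1 was not measured.

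**Figure D5:**
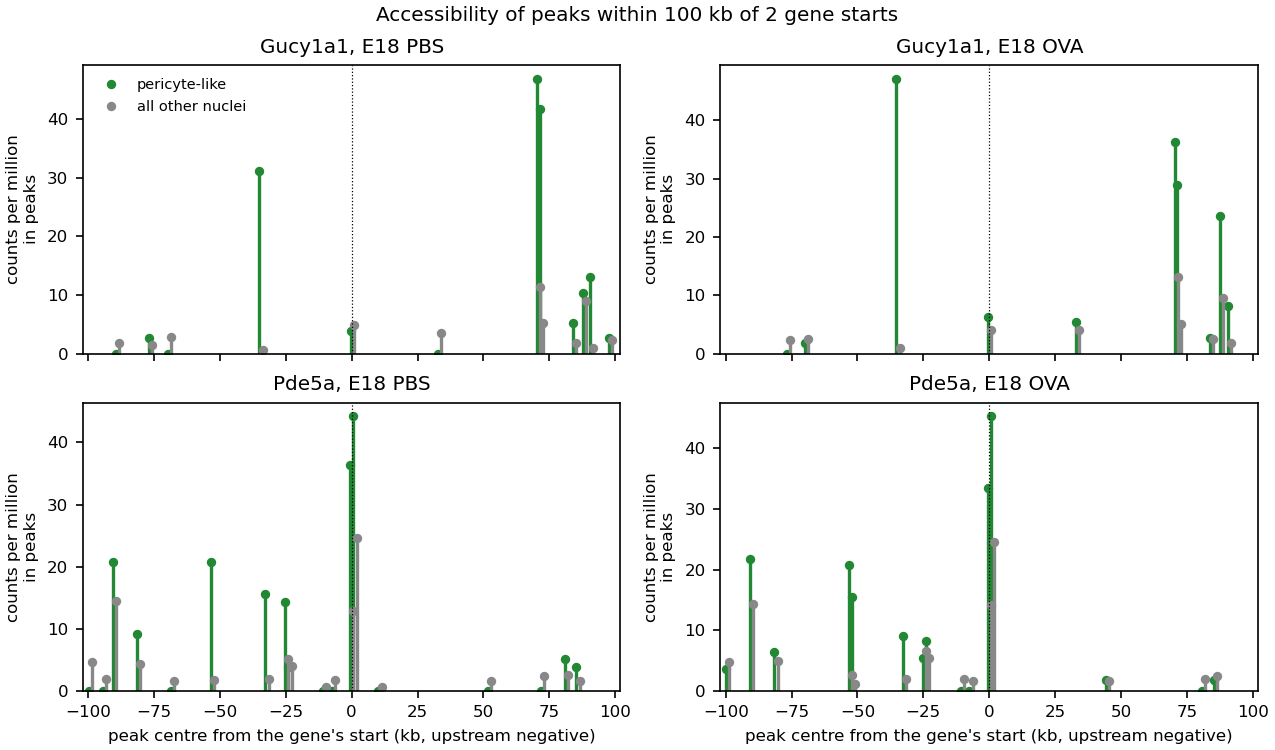
Accessibility of each peak within 100 kb of the starts of Gucy1a1 and Pde5a (transposition counts per 1000000 counts in peaks), against the distance of the peak's centre from the start (kb, upstream negative, the classes drawn slightly apart), for pericyte-like and all other nuclei in each library. The peak at -34.4 kb (PBS) and -34.6 kb (OVA) of Gucy1a1 reaches 31.2 in PBS and 47.1 in OVA in pericyte-like nuclei against 0.617 and 0.940 in all others, and the peak 72.0 kb downstream lies at the start of Gucy1b1.

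Distal peaks with at least 10 counts and at least 4-fold higher accessibility in pericyte-like nuclei in both libraries were also found within 100 kb of the starts of 5 other genes, given here by their position in PBS with upstream negative. With Gucy1a1 this makes 6 of the 9, where 8.15% of 29254 genes had such a peak. The number of peaks within that distance differed widely between the genes, from 1 for Trpc6 to 52 for Cox4i2 in PBS. For Pde5a one lay at -52.6 kb, with log2 ratios of 3.51 (2.18 to 4.67) in PBS and 2.97 (2.00 to 3.95) in OVA, and another at -32.1 kb, with 2.99 (1.42 to 4.24) and 2.20 (0.50 to 3.54). Both were outside any annotated gene. Gucy1b1 had one at 31.1 kb, inside its own body, with 3.15 (1.73 to 4.34) and 2.55 (1.25 to 3.62). The peaks for Kcnk3 (at -61.9 kb), Cox4i2 (at -99.6 kb) and Rgs5 (at 92.2 kb) lay in the bodies of Cib4, 1700030C14Rik and Rgs4, so that position alone does not assign them to a gene. All these distal peaks also had counts in fibroblast-like and in myofibroblast or smooth muscle-like nuclei. The Kcnk3 peak had 25 PBS and 45 OVA counts in pericyte-like nuclei, and 105 and 86 in myofibroblast or smooth muscle-like nuclei. Over all peaks, the former class had 768981 and 1103938 counts and the latter 3747691 and 3146599. The ratios given are over all other nuclei, and none over these 2 classes was computed.

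Among 78 other genes of the same pathways and families, 17 in PBS and 16 in OVA were at least 2-fold higher in pericyte-like than in all other nuclei, and 33 and 38 were at least 2-fold lower. Many of these had few UMIs. Of the list genes with at least 30 UMIs, 14 of 49 in PBS and 12 of 53 in OVA were higher, against the 13.5% and 12.7% of all genes given above, and 13 and 19 were lower, against 32.3% and 31.9% of all genes. List genes higher in both libraries with at least 20 UMIs included Nostrin, Trpc1, Epas1, Pde3a, Pde9a, Pde1a, Mrvi1 and Vasp. Nostrin, an adaptor that binds NO synthase, stood at 431 CPM in PBS and 581 CPM in OVA, for log2 ratios of 5.85 (5.28 to 6.43) and 5.19 (4.87 to 5.51).

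Other phosphodiesterases accompanied Pde5a. Pde3a, which cGMP inhibits, stood at 410 CPM in PBS and 532 CPM in OVA, for log2 ratios of 2.84 (2.41 to 3.24) and 2.59 (2.33 to 2.85). Pde9a, which prefers cGMP, had 9 and 11 UMIs, with ratios of 2.91 and 3.12, and Pde1a had 7 and 23 UMIs, with 2.42 and 2.91. The kinase substrates Mrvi1 and Vasp had ratios of 2.84 and 2.00, and of 1.61 in both libraries. Epas1, an oxygen-regulated transcription factor, stood at 223 and 380 CPM, for ratios of 2.97 (2.37 to 3.53) and 3.22 (2.89 to 3.53). In a small unnamed cluster led by Dipk2b and Plvap (19 PBS, 33 OVA nuclei), Epas1 was at 135 and 247 CPM. Nostrin was at 88.2 and 155 CPM in that cluster. It passed 10 endothelial markers and 4 of 6 erythroid markers, with too small a lead between the types to be named. Its nuclei summed to 215394 gene UMIs in PBS and 623833 in OVA, at medians of 1648 and 1642 per nucleus. Nuclei deeper than the median therefore gave most of its UMIs, and its levels describe those nuclei. Trpc1 had ratios of 3.11 and 2.52. The intervals of these list genes lay above 0 in both libraries.

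The enzymes that make NO had no UMI in pericyte-like nuclei. The endothelial synthase Nos3 had 0 UMIs there, which allows up to 21.6 CPM in PBS and 11.4 CPM in OVA (3 counts). It stood at 37.1 and 36.9 CPM, from 8 and 23 UMIs, in the small unnamed cluster led by Dipk2b and Plvap, whose UMIs came mostly from its deeper nuclei. In all other nuclei together Nos3 was at 1.75 and 2.41 CPM, under that limit, so its 0 cannot be read against them. Nos1 and Nos2 were at 0 in pericyte-like nuclei too, and stood at no more than 1.29 CPM in all other nuclei. This is also under the limit, so these zeros cannot be read. Of the 16 list genes at least 2-fold lower in both libraries with at least 20 UMIs in the other nuclei, 6 had an interval below 0 in either library, with Pde3b at -1.21 (-2.28 to -0.33) in PBS and -2.09 (-2.90 to -1.39) in OVA. The other 10 had intervals that included 0 in both libraries. Prkg2, the other cGMP kinase, was highest in fibroblast-like nuclei, and Cox4i1, the common form of the Cox4i2 subunit, stood at 165 CPM in pericyte-like and 216 CPM in all other PBS nuclei.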

How the data were processed

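The authors deposited raw counts for 2 libraries, unique molecular identifiers of 32285 gene features and transposition counts in peaks called per library, on mm10, made with Cell Ranger ARC 2.0.1 per the submitters' processing notes. Adult libraries were not analysed here. Barcodes with under 200 genes or over 60% mitochondrial UMIs were dropped, as were doublet calls (7.15% of PBS and 4.82% of OVA nuclei). Both libraries were clustered together on 3000 variable genes that held neither the 9 genes nor list genes (30 components, 15 neighbours, Leiden resolution 1, leidenalg 0.10.2). Clusters were named from marker lists. The 9 genes, the lists and the markers were chosen with earlier results of these data known.

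UMIs were summed per type over its nuclei, and CPM is that sum per 1000000 gene UMIs of the same nuclei. Ratios were given exact conditional binomial intervals, levels exact Poisson intervals and shares exact Clopper-Pearson intervals (scipy 1.17.1). The share of all genes used those with at least 30 UMIs. Accessibility is counts per 1000000 counts in peaks. Of nonzero values, 80.2% in PBS and 80.6% in OVA equalled 2, as when both ends of a fragment are counted, so intervals were computed from halved counts. The text names the 9 genes, their cell type markers, list genes at least 2-fold different in both libraries with at least 20 UMIs, close relatives, and the 10 genes most like the 9. One list gene that the rule names is not reported here. Gene positions are those of GENCODE M21 on GRCm38. The ratio code was tested on simulated data. Alternatives to the filters, the denominator, the clustering and the thinning were run.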

Additional observations from a re-analysis of the deposited data

How the results depend on the processing

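No paired analysis was possible because the labels give 1 library to each group. The median log2 OVA over PBS ratio of the 9 genes in pericyte-like nuclei, 0.21, turned to -0.241 with at most 20% mitochondrial UMIs, to -0.00462 over nuclear-gene UMIs, to -0.0947 with types gated per nucleus, and to -0.103 when the median ratio of all genes was taken off. With at most 20% mitochondrial UMIs, which left 9 PBS and 43 OVA pericyte-like nuclei, Gucy1a2 went to -0.241, Pde5a to -0.275 and Prkg1 to -0.723, and Pde5a went to -0.00462 over nuclear-gene UMIs. The mean number of genes per nucleus went to 4.25 in PBS under that mitochondrial limit, to 2.70 in PBS and 2.74 in OVA when thinned to 300 UMIs, and to 5.24 in OVA without thinning. The count of genes with a more accessible start went to 5 (PBS) and 4 (OVA) under that limit. With a pseudocount of 1 CPM, 5 of the 10 genes most like the 9 were kept. Beyond fewer nuclei, UMIs or genes in each setting, the cause was not tested. The other 118 alternative values of the main results stayed within the limits set. Of the values of single genes, 428 stayed within the counting interval of the reported value, and 14 of these changed sign, all of them ratios whose interval included 0. Another 67 left that interval, and 3 of these changed sign, Kcnk3 and Rgs5 over myofibroblast or smooth muscle-like nuclei and Cox4i2 in OVA over PBS, each with at most 20% mitochondrial UMIs. The count of genes highest in pericyte-like nuclei was not run with at most 20% mitochondrial UMIs, nor in PBS under the joint count filter, which left 44 nuclei. Counting unnamed clusters of at least 50 nuclei as classes, comparing with those clusters, searching single distal peaks and halving counts were chosen after seeing the data. Depth limited Rgs5, Kcnk3 and Cox4i2 most.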

Other observations

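Over 18 sums of cell type and library, 9680 genes were ranked by how closely their log2(CPM + 10) followed the mean of the 9 genes. The sums of a library share its depth, and the correlation is a description. The closest were the gap junction gene Gjc1 (Pearson r 0.977), the proteoglycan Cspg4 (0.974), the plasminogen activator Plat (0.970), the channel subunit Abcc9 (0.965) and Chn1 (0.964), followed by Aff2, Des, Ndn, Pdgfrb and Itga1 down to 0.951. Cspg4, Abcc9 and Pdgfrb were used to name the class. Gjc1 stood at 611 CPM in PBS and 718 CPM in OVA pericyte-like nuclei, against 76.9 and 83.8 CPM in myofibroblast or smooth muscle-like nuclei. Set against the mean of the other 8, Gucy1b1 followed most closely (0.982) and Prkg1 least (0.777).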
